A study of Arabidopsis thaliana with 5 samples.

Results

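Expression of 26 plastid-encoded genes was described here. They are the genes of the chloroplast genome that do not encode a subunit of photosystem I or II, the cytochrome b6f complex, ATP synthase or the NDH complex, nor the large subunit of Rubisco. They were chosen by their plastid locus tag and symbol, as probe sets that the platform annotation assigns to exactly 1 gene, and they are 26 of the 69 plastid genes and of the 13356 genes named on the array. They comprise 4 genes of RNA polymerase subunits, 7 of the large and 8 of the small ribosomal subunit, ycf3 and ycf4, and 5 genes with functions of their own (accD, clpP, matK, ccsA and cemA). Each gene had 1 probe set, so no choice between probe sets was needed. A further 6 genes outside photosynthesis (rps12, rpl2, rpl23, ycf2, rps7 and ycf1) have probe sets assigned to more than 1 gene and were left out by that rule.

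RNA came from secondary meristems of Arabidopsis thaliana plants that had been clipped when they bolted, to mimic browsing, and harvested the next day. The groups were clipped plants of the ecotype Columbia, on 3 arrays, and clipped plants of the ecotype Landsberg erecta, on 2 arrays. Clipping is shared by all 5 arrays, so the comparison is between ecotypes after clipping, and the labels call the arrays biological replicates without saying how many plants each one holds. The values are log2 probe set summaries, and a difference of 1 is a 2-fold difference.

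Plastids carry a small genome of bacterial origin that is read by 2 kinds of RNA polymerase. The bacterial-type enzyme is built from the products of rpoA, rpoB, rpoC1 and rpoC2, while a phage-type enzyme encoded in the nucleus reads the rpoB operon and accD, among others. The transcripts are often cut from long messages that span several genes, and they are translated on bacterial-type ribosomes whose proteins are encoded partly in the plastid and partly in the nucleus. Most plastid messages lack the long poly(A) tail of nuclear messages.

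The 5 arrays had medians between 5.44 and 5.50, and 24.4% to 25.2% of the probe sets of each array sat at a shared minimum of 2.15. All 26 plastid genes lay above this minimum on every array, between 4.27 and 13.1. For 7 of the 26 genes, 2 or more arrays held an identical value, and ycf3 had 1 value on all 3 Columbia arrays. Such ties may make a spread look smaller than it is. Genes are called measured here where a probe set was annotated to that gene alone. Of 17 meristem marker genes listed, 3 were measured (LAS, UFO and CLV3), and all 3 sat at the minimum on every array. The labelled meristem could thus not be seen in these 3 markers. The other listed markers were not looked for among probe sets without a gene name or with several genes. The 4 measured markers of green tissue, among them the Rubisco activase gene RCA, had log2 values from 11.3 to 14.6. As the samples are bulk tissue, more plastid-rich cells and more plastid RNA per cell cannot be told apart.

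The most visible feature of these genes was a gap between the 2 Landsberg erecta arrays. Of the 26 genes, 23 had a higher value on Landsberg erecta replicate 2 than on replicate 1, and 21 had their highest value of all 5 arrays on replicate 2. Over all 22746 probe sets, 30.3% were higher on replicate 2 than on replicate 1 and 15.1% were highest there (42.0% and 21.0% of the 16428 that varied between arrays). On replicate 1, 11 of the 26 genes had their lowest value, against 11.7% of all probe sets and 16.2% of those that varied. The median gap, replicate 2 minus replicate 1, was 0.31 for the plastid genes and 0.00 for all probe sets. For 19 of the 26 genes the gap was larger than the whole range of the 3 Columbia arrays. The same held for 28.0% of all probe sets and 38.7% of those that varied. The median of that range over the 26 genes was 0.22. A gap of at least 2-fold upward on replicate 2 was found for 4 of the 26 genes, against 0.321% of all probe sets, and one of at least 2-fold downward for 0 of the 26, against 0.119%. These counts describe the arrays after the pattern had been seen and carry no test.

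**Figure D1:**
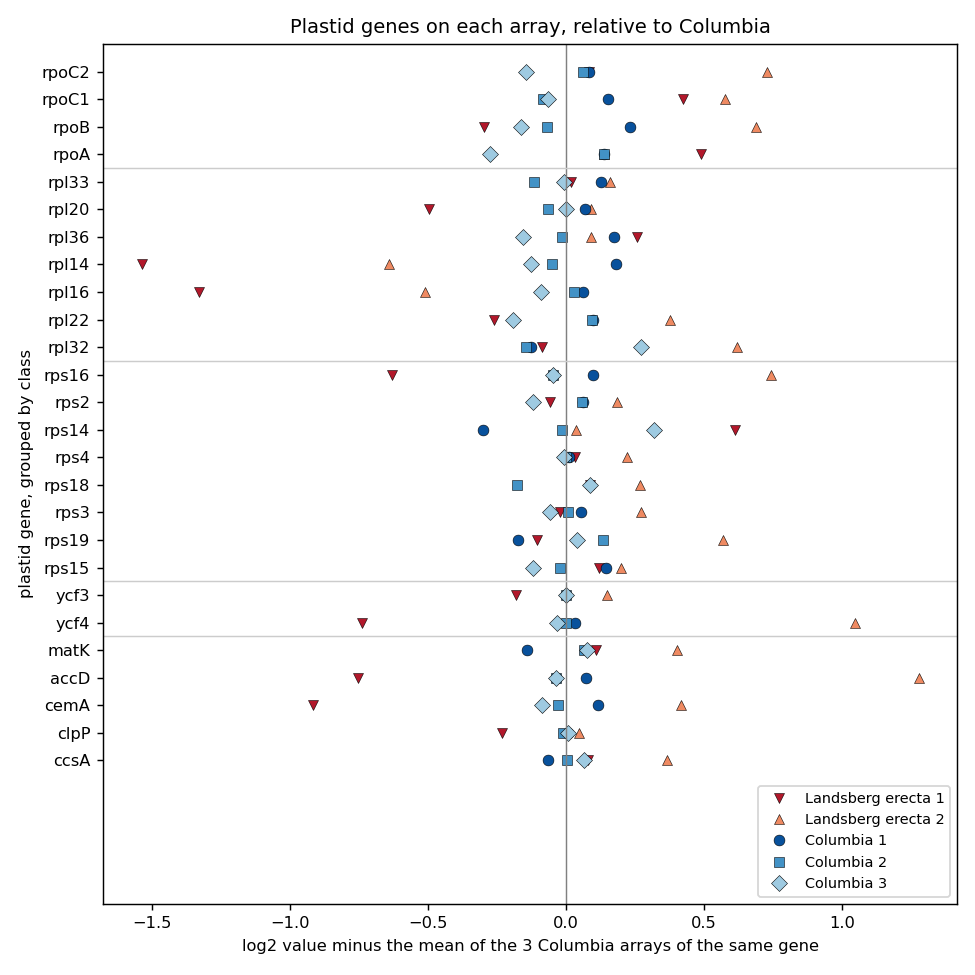
Log2 value of each of the 26 plastid genes on each of the 5 arrays, minus the mean of the 3 Columbia arrays for the same gene (x axis), with genes grouped by class from RNA polymerase at the top to single functions at the bottom (y axis; points can hide each other). The upward triangles of Landsberg erecta replicate 2 lie farthest right for 21 genes, the downward triangles of replicate 1 lie farthest left for 11, and rpl14 and rpl16 have both to the left of Columbia.

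The RNA polymerase genes had lower means in Columbia than in Landsberg erecta for 4 of 4 members, by a median of -0.36, while the median over all probe sets was 0.00. Without Landsberg erecta replicate 1 the median was -0.63, and without replicate 2 it was -0.25, with 1 of 4 higher in Columbia. None of the 4 passed the test after adjustment. Values below are given in the order of the replicate numbers. The gene rpoC1 (ArthCp013), which encodes the beta prime subunit, had log2 values of 10.80 and 10.95 on the Landsberg erecta arrays and 10.53, 10.29 and 10.31 on Columbia replicates 1 to 3. The ecotypes did not overlap, and both Landsberg erecta arrays were above every Columbia array. The Columbia mean was 10.38 ± 0.13 (SD, n = 3) and the Landsberg erecta mean 10.88 ± 0.11 (SD, n = 2), which gave -0.50 for Columbia minus Landsberg erecta (95% interval -0.82 to -0.18; limma, unadjusted p = 0.0144, adjusted p = 1.0 over all probe sets). The other polymerase genes did not separate the ecotypes, though rpoC2 and rpoA failed to do so only through values identical between arrays of the ecotypes. For rpoC2 and rpoA, no Columbia array was above a Landsberg erecta array. The beta subunit gene rpoB had 7.66 and 8.65 in Landsberg erecta and 8.19, 7.89 and 7.80 in Columbia, so that 1 Landsberg erecta array lay below and the other above all of Columbia. The gene rpoC2, for the beta double prime subunit, had 9.15 and 9.80 in Landsberg erecta and 9.15, 9.13 and 8.92 in Columbia. The alpha subunit gene rpoA, which belongs to another operon, ran the other way between the Landsberg erecta arrays, with 11.50 and 11.15, against 11.15, 11.15 and 10.74 in Columbia. The operon of rpoB, rpoC1 and rpoC2 thus had gaps of 0.99, 0.15 and 0.64 between the Landsberg erecta arrays, and rpoA one of -0.35.

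In the large ribosomal subunit, rpl14 and rpl16 were the 2 members of all 26 whose values were higher on every Columbia array than on either Landsberg erecta array. Over all probe sets, 3.92% were higher in Columbia without overlap and 2.92% were lower. The gene rpl14 (ArthCp059) had log2 values of 8.85 and 9.75 on the Landsberg erecta arrays and 10.57, 10.34 and 10.26 on the Columbia arrays. Its Columbia mean of 10.39 ± 0.16 (SD, n = 3) was 1.09 above the Landsberg erecta mean of 9.30 ± 0.63 (SD, n = 2) (95% interval 0.09 to 2.10; limma, unadjusted p = 0.0403, adjusted p = 1.0). The direction held against each Landsberg erecta array: the Columbia mean was 2.91-fold the value of replicate 1 and 1.56-fold that of replicate 2. The gene rpl16 (ArthCp060), the next measured gene on the plastid map, had 10.83 and 11.65 in Landsberg erecta and 12.22, 12.19 and 12.07 in Columbia. Its difference was 0.92 (95% interval 0.04 to 1.80; limma, unadjusted p = 0.0447, adjusted p = 1.0), and the Columbia mean was 2.51-fold the value of replicate 1 and 1.43-fold that of replicate 2. When each array was centred on the 43 plastid photosynthesis and NDH genes instead, rpl14 passed, with a difference of 1.22 (limma, adjusted p = 0.00955), as did 0.022% of all probe sets in that direction, and rpl16 did not. That centring moved the median of all probe sets of Columbia minus Landsberg erecta by 0.13, and it called 0 of the 26 genes lower, against 0.0484% of all probe sets.

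The other measured genes of the same ribosomal operon did not share this direction. The measured genes there are, in map order, rpoA, rpl36, rpl14, rpl16, rps3, rpl22 and rps19, with genes not analysed here on both sides of rpl36, and the differences, Columbia minus Landsberg erecta, were -0.31, -0.17, 1.09, 0.92, -0.12, -0.06 and -0.23. The gene rps3 had 12.15 and 12.44 in Landsberg erecta and 12.22, 12.18 and 12.11 in Columbia. The gene rpl22 had 11.96 and 12.60 in Landsberg erecta and 12.32, 12.31 and 12.03 in Columbia. For rpl22 the Columbia arrays lay between the Landsberg erecta arrays, and for rps3 1 Columbia array lay below both of them. The genes rpl36 (9.35 and 9.18 against 9.26, 9.08 and 8.93) and rpoA were the members of this stretch with a lower value on Landsberg erecta replicate 2 than on replicate 1.

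The remaining large subunit genes overlapped between ecotypes. The gene rpl20 had 7.64 and 8.23 in Landsberg erecta and 8.20, 8.07 and 8.14 in Columbia, so that replicate 1 stood below the other 4 arrays. Its difference of 0.20 (95% interval -0.43 to 0.84; limma, unadjusted p = 0.400, adjusted p = 1.0), became -0.09 without that array. The gene rpl32 had 10.74 and 11.45 in Landsberg erecta and 10.70, 10.69 and 11.10 in Columbia. The gene rpl33 had 11.67 and 11.81 against 11.78, 11.54 and 11.65, and its gap of 0.14 was smaller than the Columbia range of 0.24. Over the 7 large subunit genes, 3 had a higher and 4 a lower mean in Columbia, with a median difference of -0.06 and a range from -0.27 to 1.09. Without Landsberg erecta replicate 2 the median was 0.26, with 5 of 7 higher in Columbia.

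All 8 small subunit genes had lower means in Columbia, by -0.05 to -0.32 with a median of -0.14, and 0 of 8 passed either with or without adjustment. Without Landsberg erecta replicate 2 the median was -0.0042 and 4 of 8 were higher in Columbia, and without replicate 1 it was -0.24. The gene rps4, whose counterpart in Escherichia coli takes part early in assembly of the small subunit, had 12.85 and 13.04 in Landsberg erecta and 12.83, 12.82 and 12.81 in Columbia. It was the single small subunit gene without overlap, at a difference of -0.13, and the nearest arrays of the ecotypes lay 0.02 apart. The gene rps16 was split widely by the Landsberg erecta arrays, with 7.54 and 8.91, while Columbia held to 8.27, 8.12 and 8.12. Its Landsberg erecta replicates lay 2.59-fold apart and on opposite sides of Columbia, and the mean difference was -0.05 (95% interval -1.52 to 1.41). The gene rps19 had 12.13 and 12.81 in Landsberg erecta and 12.07, 12.37 and 12.28 in Columbia. The gene rps14 had the lowest values of all 26, with 5.19 and 4.61 in Landsberg erecta and 4.27, 4.56 and 4.89 in Columbia. It was the single small subunit gene with a lower value on Landsberg erecta replicate 2 than on replicate 1. The genes rps2, rps15 and rps18 had gaps between the Landsberg erecta arrays of 0.24, 0.08 and 0.18, beside Columbia ranges of 0.18, 0.26 and 0.26. The ecotypes overlapped for rps2 and rps15. For rps18 they failed to separate only through values identical between arrays of the ecotypes, and no Columbia array was above a Landsberg erecta array.

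Among the genes outside transcription and translation, accD, ycf4 and cemA had the widest gaps between the Landsberg erecta arrays. They lie close together on the plastid map, at ranks 50, 52 and 53 of its genes. The gene accD (ArthCp031), which encodes a subunit of the acetyl-CoA carboxylase of fatty acid synthesis, had 7.93 and 9.97 in Landsberg erecta and 8.76, 8.65 and 8.65 in Columbia. The Landsberg erecta arrays differed 4.09-fold, whereas the Columbia arrays spanned 0.11 on the log2 scale. The gene ycf4 (ArthCp033), for a factor of photosystem I assembly, had 8.84 and 10.63 in Landsberg erecta and 9.61, 9.58 and 9.55 in Columbia. The gene cemA (ArthCp034), for a protein of the inner plastid envelope, had 11.03 and 12.36 in Landsberg erecta and 12.06, 11.92 and 11.86 in Columbia. For each of the 3 genes, replicate 1 lay below and replicate 2 above all Columbia arrays. Their mean differences between ecotypes, -0.26, -0.15 and 0.25, had 95% intervals of -2.41 to 1.89, -2.04 to 1.74 and -1.18 to 1.68, so that a 2-fold difference in either direction was not excluded.

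The same split was smaller for clpP and ycf3. The gene clpP, for the proteolytic subunit of the stromal Clp protease, had 12.66 and 12.94 in Landsberg erecta and 12.90, 12.88 and 12.90 in Columbia. The gene ycf3, also of photosystem I assembly, had 7.92 and 8.25 in Landsberg erecta and 8.10 on all Columbia arrays. In all, 9 of the 26 genes (rps16, rpoB, ycf3, accD, ycf4, cemA, rpl20, clpP and rpl22) had Landsberg erecta replicate 1 below and replicate 2 above every Columbia array. This held for 3.55% of all probe sets, or 807 of the 16428 that varied. The reverse was seen for 0 of 26, against 3.77% of all probe sets, or 857 of those that varied.

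The genes matK and ccsA were lower on every Columbia array than on either Landsberg erecta array. The gene matK, for a maturase that takes part in splicing of plastid introns, had 12.84 and 13.14 in Landsberg erecta and 12.59, 12.80 and 12.81 in Columbia. Its difference was -0.26 (95% interval -0.66 to 0.15; limma, unadjusted p = 0.144, adjusted p = 1.0). The gene ccsA, for a factor that attaches heme to c-type cytochromes, had 12.53 and 12.82 in Landsberg erecta and 12.39, 12.46 and 12.52 in Columbia. Its difference was -0.22 (95% interval -0.56 to 0.11; limma, unadjusted p = 0.131, adjusted p = 1.0). The separation was narrow, with the nearest arrays of the ecotypes 0.03 apart for matK and 0.01 apart for ccsA.

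**Figure D2:**
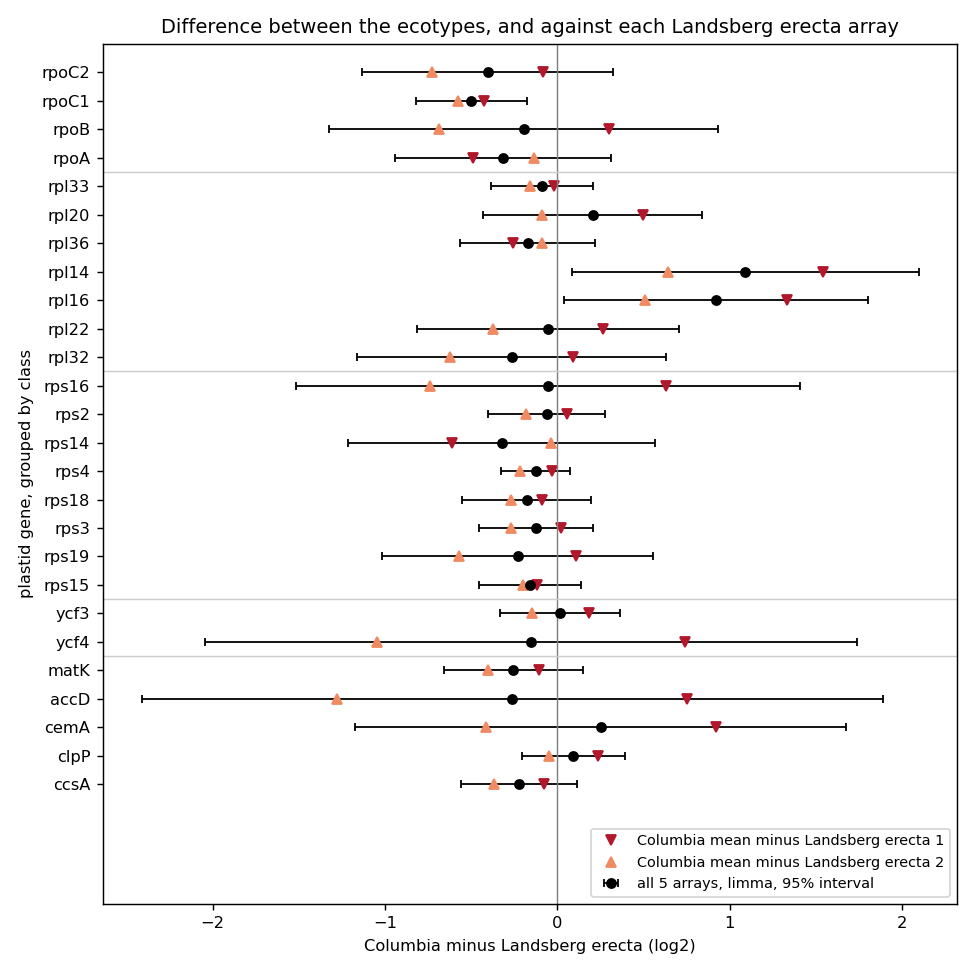
Difference between the ecotypes for each of the 26 plastid genes, Columbia minus Landsberg erecta on the log2 scale (x axis), with genes grouped by class (y axis). Black points with bars are the limma estimate from 5 arrays and its 95% interval, and triangles are the Columbia mean minus each Landsberg erecta array. The interval lies above 0 for rpl14 and rpl16 and below 0 for rpoC1, and the triangles fall on opposite sides of 0 for 13 genes.

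Taking the 26 genes as a whole, no ecotype difference passed the adjusted test. By limma with Benjamini-Hochberg adjustment, 0 were called higher and 0 lower in Columbia, as were 0.0% of all probe sets in each direction. At an unadjusted p under 0.05, rpl14 and rpl16 were higher and rpoC1 was lower in Columbia, or 2 and 1 of 26, against 1.17% and 0.62% of all probe sets. Without overlap, 2 genes were higher and 4 lower in Columbia (rpoC1, rps4, matK and ccsA), against 3.92% and 2.92% of all probe sets. Means were lower in Columbia for 20 genes and higher for 6, with a median difference of -0.16. This direction rested on Landsberg erecta replicate 2: against replicate 1 alone, the Columbia mean was higher for 15 of 26 genes with a median of 0.07, and against replicate 2 alone it was higher for 2 of 26 with a median of -0.27. The 95% interval excluded a 2-fold difference for 15 of the 26 genes, and for 20411 of the 22746 probe sets.

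With 1 Landsberg erecta array, calls appeared in opposite directions. Without replicate 2, ycf3, ycf4 and clpP were called higher in Columbia (3 of 26, against 1.23% of all probe sets) and 0 lower (against 2.88%). Without replicate 1, ycf3, ycf4, accD and rps4 were called lower (4 of 26, against 2.89%) and 0 higher (against 1.57%). The genes ycf3 and ycf4 were in both, with differences of 0.18 and 0.74 in the former fit and -0.15 and -1.05 in the latter. In these fits the lone array is assumed to vary like the Columbia arrays, which were identical for ycf3 and spanned at most 0.11 for the others.

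The gap was shared with the rest of the plastid genome. Of the 43 photosynthesis and NDH genes of the plastid, 39 were higher on Landsberg erecta replicate 2 than on replicate 1, with a median gap of 0.50, and 13 lay at least 2-fold apart. Centred on those genes, 12 of the 26 genes were higher on replicate 2 and the median gap was -0.18 (that of all probe sets moved to -0.49 by this shift). Whether the gaps of these gene sets differ was not tested. The gap did not vary smoothly along the plastid map. The neighbours ycf4 and cemA had gaps of 1.79 and 1.33, rpl14 and rpl16 of 0.90 and 0.82, and the neighbours rpl33 and rps18 of 0.14 and 0.18. Between accD at 2.03 and ycf4 at 1.79, however, lies psaI, a photosystem I gene with a gap of 0.23.

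**Figure D3:**
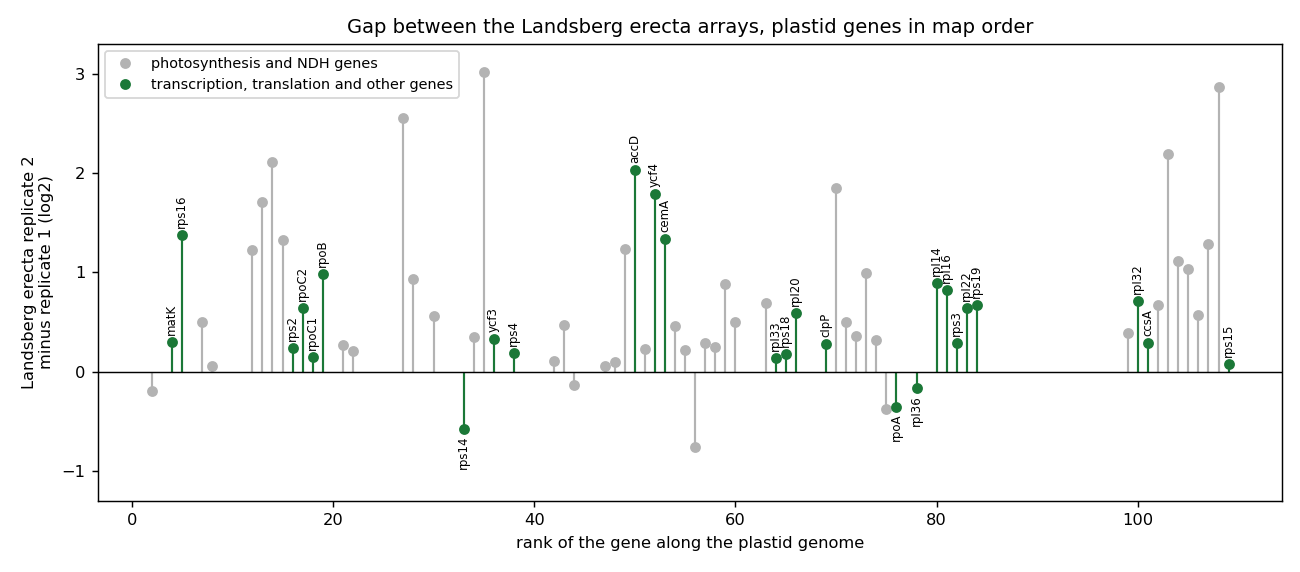
Log2 value on Landsberg erecta replicate 2 minus that on replicate 1 (y axis) for 69 plastid genes in the order of the plastid map (x axis, rank of the gene). Green points are the 26 genes described here, named, and grey points the 43 photosynthesis and NDH genes. Of the green points, 23 lie above 0, with accD, ycf4, rps16 and cemA above 1 and rps14, rpoA and rpl36 below 0.

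The measured nuclear genes of plastid ribosomal proteins and Clp protease subunits did not follow the gap. Of 33 nuclear genes of plastid ribosomal proteins listed, 9 were measured, and 9 of 9 were lower on Landsberg erecta replicate 2 than on replicate 1, by a median of -0.21 and a range from -0.06 to -0.66. Between ecotypes 7 of the 9 had a higher mean in Columbia and 2 a lower one, with a median of 0.06 and 0 passing in either direction. The member with the smallest p, AT5G65220, had 11.63 and 11.42 in Landsberg erecta and 11.70, 11.62 and 11.62 in Columbia (limma, unadjusted p = 0.216, adjusted p = 1.0). The nuclear genes of Clp protease subunits had 2 of 10 measured, and the member with the smallest p, AT1G09130, had 10.17 and 9.74 in Landsberg erecta and 10.28, 10.28 and 10.16 in Columbia (limma, adjusted p = 1.0). Both were lower on replicate 2, whereas the plastid gene clpP was higher there. Of 5 listed partners in cytochrome c and photosystem I assembly, 3 were measured, 0 passed, and 1 was higher and 2 were lower on replicate 2. The member with the smallest p, AT1G49380, had 8.06 and 8.43 in Landsberg erecta and 8.43, 8.42 and 8.59 in Columbia (limma, adjusted p = 1.0).

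The other lists had 1 or no measured gene. The intron splicing factor gene CAF1 lay between 6.88 and 7.06 on the 5 arrays, and the ecotypes overlapped (limma, adjusted p = 1.0). Of 8 genes of nuclear-encoded plastid polymerases and sigma factors, AT5G15700 was measured, at 2.20 on all 5 arrays and close to the minimum. None of the listed polymerase-associated proteins (0 of 12), acetyl-CoA carboxylase subunits (0 of 4) or import and FtsH partners (0 of 8) had a probe set annotated to it alone. Probe sets without a gene name or with several genes were not searched for them.

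Signs of green tissue, other organelles and RNA quality were set beside the gap. Of the 4 measured green tissue markers, 2 were higher and 2 lower on Landsberg erecta replicate 2 than on replicate 1, with gaps between -0.17 and 0.07. Their median level was 13.52 and 13.46 on the Landsberg erecta arrays and 13.59 to 13.71 on the Columbia arrays. All 4 markers had a higher mean in Columbia, by a median of 0.17, against -0.16 for the 26 plastid genes. For RCA and LHCB4.1 the ecotypes did not overlap. The differences were 0.17 for RCA (limma, unadjusted p = 0.013) and 0.20 for LHCB4.1 (limma, unadjusted p = 0.0405). After adjustment, 0 of the 4 passed. Whether this bears on the plastid genes was not tested. The 16 mitochondrial genes had a median gap of 0.03, with 8 higher, 1 lower and 7 equal on replicate 2, but their median level on replicate 1 was 3.25, near the minimum of 2.15, and 2 were at the minimum on all arrays. The GAPDH control, whose 3 prime to 5 prime log2 ratio reads RNA integrity and labelling, had ratios of 1.25 and 1.22 on the Landsberg erecta arrays, 0.03 apart, and of 0.89, 0.92 and 0.98 on the Columbia arrays. This ratio was thus higher on both Landsberg erecta arrays than on every Columbia array. The same ratio of the ubiquitin control was 0.90 and 0.85 in Landsberg erecta and 0.88, 0.73 and 0.94 in Columbia, and the ecotypes overlapped. The 25S ribosomal RNA control had 7.16 and 6.53 on the Landsberg erecta arrays and 7.77, 8.11 and 8.17 on the Columbia arrays. It was lowest on Landsberg erecta replicate 2, and lower on both Landsberg erecta arrays than on every Columbia array. The part of these controls in the gap or in the ecotype differences of the plastid genes was not tested. The anther marker AMS had 5.97 and 6.96 in Landsberg erecta and 6.51, 6.76 and 4.95 in Columbia, and the secondary wall marker GUT2 had 7.68 and 8.01 against 5.79, 6.88 and 8.27. Both were higher on replicate 2 than on replicate 1 and varied more between Columbia arrays than any of the 26 plastid genes did, and their part in the gap was not tested.

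**Figure D4:**
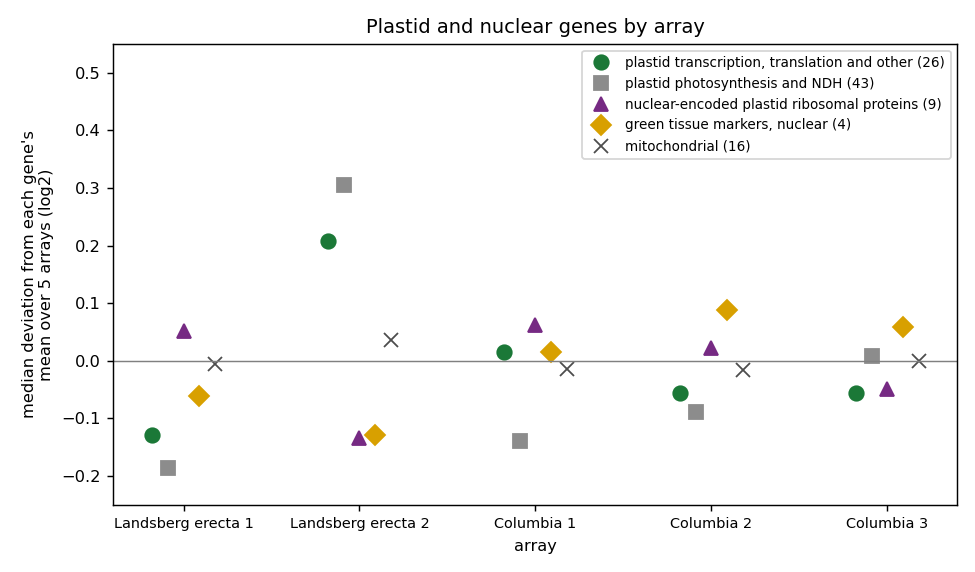
Median deviation of the genes of a group from their own mean over 5 arrays (y axis, log2) on each array (x axis), with the number of genes in brackets. On Landsberg erecta replicate 2 the plastid transcription, translation and other genes stand at 0.21 and the plastid photosynthesis and NDH genes at 0.30, while the nuclear-encoded plastid ribosomal proteins and the green tissue markers stand at -0.13 each.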

How the data were processed

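The authors deposited log2 expression values for 5 Affymetrix arrays, with 22810 probe sets each. The log2 scale was read from the range of the values (2.15 to 15.1). The labels give Trizol extraction and biotin-labelled cRNA, and the background correction, normalization and probe set summary are not given in the sources used here. Scale and centring beyond this stay unknown. The number of arrays limits the precision.

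The 64 controls were left out of the tests. The platform annotation named the probe sets, and RefSeq (assembly TAIR10.1) gave the current symbol for each gene identifier: 13513 probe sets had 1 gene (13356 genes, 13286 of them matched in RefSeq), 503 had several and 8794 none. From RefSeq the order of plastid genes was used, and no coordinates. Mitochondrial genes were taken by their symbols, a rule made after the files were seen.

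Linear models (limma 3.58.1 under R 4.3.3, functions lmFit and eBayes) were fitted to all 5 arrays without covariate or filter, as Columbia minus Landsberg erecta, with Benjamini-Hochberg adjustment over 22746 probe sets at 0.05. Prior and residual degrees of freedom were 0.359 and 3. The fit was tested on simulated data. Members and gene lists were chosen with earlier results of these data known. Full test values were given for the 3 members per direction with the smallest p. Per list with a measured gene and none passing, the member with the smallest p was named with part of its values. AMS, GUT2 and the other markers are listed as well. Intervals named for further members were added after their values were seen. Alternatives were quantile normalization, equal array medians, centring on plastid photosynthesis genes, filters at the lowest 25% and 50% of means, a trended and a robust eBayes, weighted arrays, gene means, a replicate block, an unadjusted p, and each array left out. Plots used matplotlib 3.10.9 (Python 3.11.15).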

Additional observations from a re-analysis of the deposited data

How the results depend on the processing

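The numbers of plastid genes called higher and lower in Columbia (0 and 0) ranged from 0 to 3 and from 0 to 4 when each array was dropped in turn. These calls came where 1 Landsberg erecta array remained, and the cause was not tested. Without adjustment, at p under 0.05, 2 and 1 were called. Centred on the plastid photosynthesis and NDH genes, 1 was called higher (rpl14), and the cause was not tested. Quantile normalization, equal array medians, both filters, the trended and robust eBayes, weighted arrays and gene means gave 0 calls. With single arrays left out, the median difference ranged from -0.269 to 0.073 for all 26 genes, from -0.632 to -0.254 for RNA polymerase, from -0.106 to 0.263 for the large subunit, from -0.243 to -0.0042 for the small subunit, from -0.599 to 0.461 for ycf3 and ycf4, and from -0.404 to 0.233 for the 5 single functions. For the small subunit it was -0.0095 when centred on the photosynthesis genes. The difference of rpl20 ranged from -0.0895 to 0.498 with arrays left out, and those of rpl14 (0.64 to 1.54), rpl16 (0.51 to 1.33), rpoC1, ccsA and matK kept their sign. In alternatives added after the data were seen, 12 genes instead of 23 were higher on Landsberg erecta replicate 2 than on replicate 1, 7 instead of 21 were highest there and the median gap was -0.179 instead of 0.312 when centred on the photosynthesis genes. With equal array medians, 17 were highest there.

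Replicate numbers are shared between the ecotypes, and nothing in the labels says that they pair arrays. The correlation of same-numbered arrays, taken over probe sets on deviations from each ecotype's mean, was -0.02 for replicate 1 and 0.08 for replicate 2, which are not independent of each other. With the replicate block the median difference of the 26 genes was -0.106, and 0 genes were called in either direction.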
